A study of Mus musculus with 3 samples.

Results

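The genes described here are the Kdm, Kmt, Chd and Brd families of chromatin regulators and the testis gene Brdt. They were chosen by symbol alone: every protein-coding gene on a mouse autosome in GENCODE vM39 whose symbol is Kdm, Kmt, Chd or Brd followed by a digit, or is Brdt. The rule gave 44 genes of 21770 protein-coding genes, with 15 Kdm genes, 8 Kmt genes, 10 Chd genes and 11 Brd genes. Brd3os and Brd8dc entered by symbol only, with no check of what their proteins do.

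RNA contacts of Tra2β were mapped by iCLIP in cells freed by mincing testes of adult wild type mice, described in the methods as germ cells, with a polyclonal antibody against the endogenous protein. All samples formed 1 group of 3 libraries, described by the study as biological triplicates. The labels gave neither age in weeks nor strain, and called the cell type mixed. Each comparison stays inside a library, since control libraries without the antibody or the protein were not analysed here, and a gene with more RNA in the testis gives more crosslinks at equal affinity.

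Tra2β is a splicing regulator of the SR-like class that binds purine-rich RNA and is known to promote inclusion of exons. In iCLIP, ultraviolet light joins the protein to RNA it touches, and each cDNA marks the joined nucleotide, here called a crosslink. Kdm proteins remove methyl groups from histone lysines and Kmt proteins add them. Chd proteins use ATP to move nucleosomes, and Brd proteins read acetylated lysines through bromodomains. Germ cells rebuild their chromatin during meiosis and again when histones give way to protamines in spermatids.

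The libraries held 348033, 619571 and 488719 crosslinks in replicates 1, 2 and 3, of which 296946, 459310 and 428612 lay inside annotated genes on their own strand. Levels are given as CPM, the crosslinks in the exons and introns of a gene's canonical transcript per 1000000 of those inside genes. A count of 0 allows up to 10.1, 6.53 and 7.0 CPM in the 3 libraries, and this limit, like the intervals below, covers counting error only. Replicate 2 stood apart in the share of crosslinks that fell in exons, which over all other protein-coding genes was 42.9%, 26.7% and 55.5%. All 11 germ cell markers examined carried crosslinks in every library, with summed levels of 2829, 1208 and 3248 CPM. Sertoli, Leydig and peritubular myoid markers, lists of 4, 4 and 2 genes, summed to at most 133 CPM per list in any library. Most of the Sertoli sum was Wt1, at 90.9, 113 and 72.3 CPM, while Amh was at 0 in all libraries. Of 3 genes of other tissues, Alb and Ins2 had no crosslink and Myh6 had 2.

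The chromatin genes carried 1804, 2073 and 3303 crosslinks in replicates 1, 2 and 3, and each gene had at least 1. Their median level was 80.8, 69.7 and 103 CPM (84.4 ± 16.8, SD over n = 3 libraries), while the median of the 21726 other protein-coding genes was 3.37, 4.35 and 4.67 CPM (4.13 ± 0.678). The medians of the chromatin genes were higher in all 3 libraries, in a design whose smallest exact sign-flip p is 0.25, so no test was made. The other genes included 5453 with no crosslink at all. Among genes with at least 10 crosslinks the medians were 105 ± 18.3 CPM for 41 chromatin genes and 32.3 ± 1.63 CPM for 9349 others.

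The chromatin genes were also longer, with a median of 6675.5 nt of exon and 45487.5 nt of intron against 2911 and 13040.5 nt. Exonic CPM per kb of exon, which allows for length, had a median of 5.84 ± 0.393, against 0.169 ± 0.147 for all other genes. In genes with at least 10 crosslinks the values were 6.33 ± 0.793 and 3.10 ± 0.672. By mean CPM, 1 chromatin gene ranked among the first 100 protein-coding genes, 9 among the first 1000 and 37 among the first 5000. By exonic CPM per kb these counts were 1, 8 and 33.

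**Figure D1:**
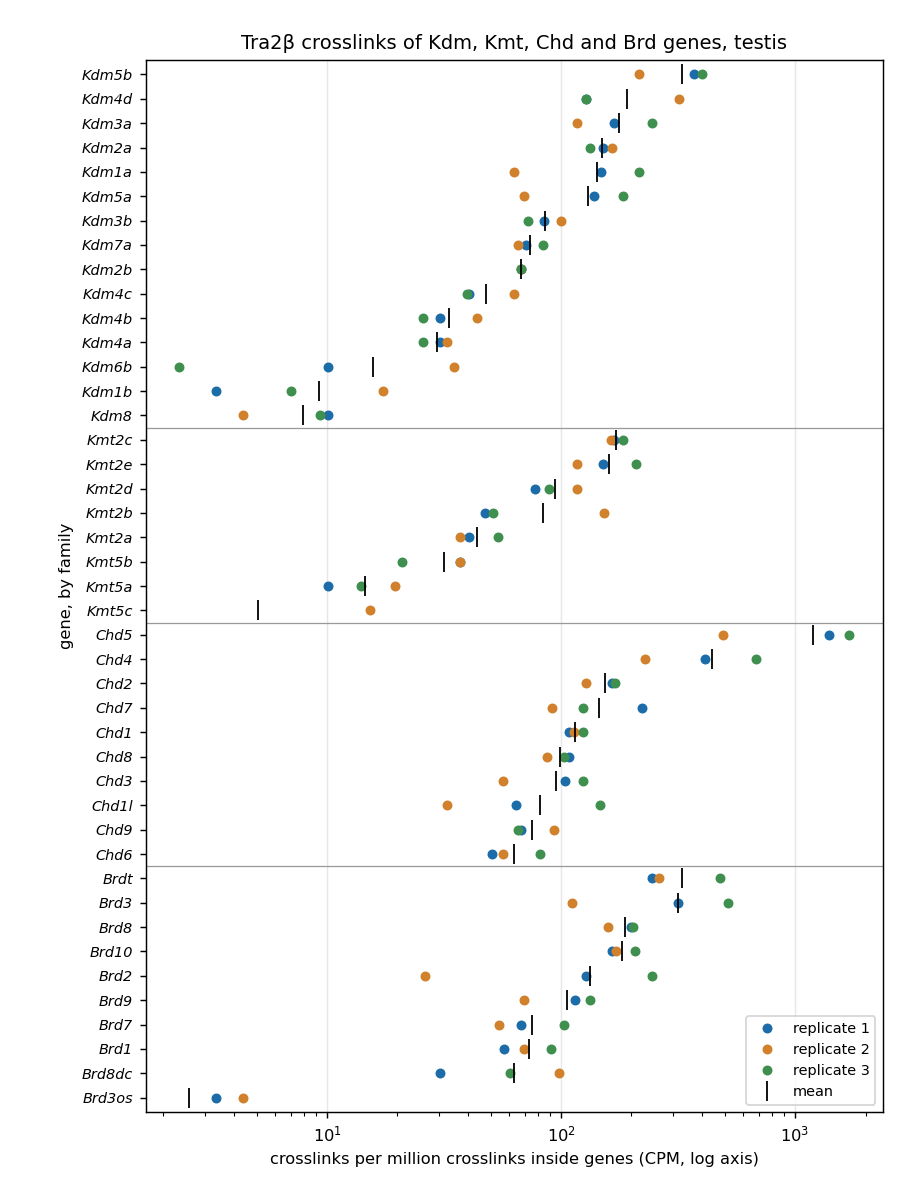
CPM (crosslinks scaled to those inside genes, log axis) of 43 of the 44 genes, grouped by family and ordered by mean, with 1 point per library and a bar at the mean of the 3 libraries. 3 library values of 0 are not drawn. Chd5 stood highest in every library, at 494 to 1703 CPM, and Kdm4d and Kmt2b had their highest point in replicate 2.

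The Chd family carried 2858 crosslinks, the most of the 4 families, though without Chd5 it carried 1487, fewer than the Brd and Kdm families. In replicate 2 it had 635, beside 634 in the Kdm family. Its summed level was 2694, 1383 and 3320 CPM, and replicate 2 was the lowest. Chd5, a nucleosome remodeller of the NuRD type that is expressed in neurons and spermatids and is needed for sperm chromatin to mature, had 384, 175 and 689 exonic and 30, 52 and 41 intronic crosslinks. That was 1394, 494 and 1703 CPM, rank 22 of all protein-coding genes by the mean. Chd5 alone held 27.2% of all exonic crosslinks of the 44 genes and 19.1% of all their crosslinks.

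Chd4, the main ATPase of the NuRD repressor complex, had 105, 88 and 268 exonic and 17, 17 and 23 intronic crosslinks (rank 188). Its levels of 411, 229 and 679 CPM were below those of Chd5 in each library. Chd3, the third remodeller of the NuRD type, had 29, 23 and 48 exonic and 2, 3 and 5 intronic crosslinks. In exonic CPM per kb of exon, Chd5 reached 138, 40.5 and 171, Chd4 52.8, 28.6 and 93.4, and Chd3 stayed below both in each library. The other 7 Chd genes had means between 62.9 CPM (Chd6) and 155 CPM (Chd2).

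The Brd family carried 1827 crosslinks, summing to 1398, 1091 and 2125 CPM. Brdt, a bromodomain protein made in male germ cells and needed for spermatid chromatin to compact, had 38, 40 and 118 exonic and 35, 81 and 87 intronic crosslinks, or 246, 263 and 478 CPM. Brd3, a ubiquitous relative of Brdt in the BET class of acetyl-lysine readers, had 81, 28 and 193 exonic and 13, 23 and 29 intronic crosslinks, or 317, 111 and 518 CPM. Brdt and Brd3 changed order between libraries, with Brd3 higher in replicates 1 and 3.

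Brd8, a subunit of the NuA4 acetyltransferase complex, had 24, 48 and 44 exonic and 35, 25 and 43 intronic crosslinks (187 ± 24.3 CPM). Brd10 had 16, 23 and 40 exonic and 33, 56 and 49 intronic crosslinks (182 ± 22.9 CPM). These values were close in all libraries, and the levels of the pair overlapped. Brd2, another BET reader, was less steady, at 128, 26.1 and 245 CPM. Brd3os was the lowest gene of the family and of all 44, with 3 crosslinks in total.

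The Kdm family carried 1767 crosslinks, summing to 1451, 1380 and 1638 CPM, and was the most even of the families with over 1000 crosslinks between libraries (SD 133 CPM). Kdm5b, which removes methyl groups from lysine residues that mark active promoters, had 52, 33 and 106 exonic and 58, 66 and 65 intronic crosslinks, or 370, 215 and 399 CPM. Kdm3a, a demethylase known to be needed for spermatids to elongate, had 20, 23 and 48 exonic and 30, 31 and 57 intronic crosslinks (177 ± 64.1 CPM). Both lay above Kdm4d in replicates 1 and 3 and below it in replicate 2.

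Kdm4d is a demethylase of repressive lysine methylation that is strongly expressed in testis. It had 11, 5 and 12 exonic against 27, 142 and 43 intronic crosslinks, or 128, 320 and 128 CPM. Its level in replicate 2 was above that in the other libraries, and the intron held most of it. Kdm1b and Kdm8, with 12 and 9 crosslinks, closed the family.

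The Kmt family carried 728 crosslinks, the fewest, summing to 532, 660 and 623 CPM. Kmt2c, which methylates histone H3 at enhancers, had 28, 29 and 42 exonic and 22, 46 and 37 intronic crosslinks, or 168, 163 and 184 CPM. Its paralogue Kmt2d had 20, 49 and 36 exonic and 3, 5 and 2 intronic crosslinks. Kmt2b, a promoter-binding member named here after its values were seen, had 11, 53 and 16 exonic crosslinks. Kmt2b and Kmt2d had their most exonic crosslinks in replicate 2, although the 44 genes together had the fewest exonic crosslinks there. Kmt5c had 7 crosslinks, all in replicate 2.

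Exons of the chromatin genes were crosslinked more densely than their introns in most genes. Summed over the 44 genes, 65.8% (95% exact binomial interval 63.6 to 68.0), 49.0% (46.8 to 51.2) and 72.1% (70.6 to 73.6) of crosslinks lay in exons, against 42.9%, 26.7% and 55.5% in all other protein-coding genes. The median exon share of the 41 genes with at least 10 crosslinks was 53.7% ± 5.0, against 37.2% ± 8.45 for 9349 others. Replicate 2 was lowest in both sets.

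The density test asked of each gene whether crosslinks per nt of exon exceeded those per nt of intron. Each library was tested on its own by an exact binomial test, two-sided, with exon and intron length as the expectation and Benjamini-Hochberg adjustment over all genes and libraries. A gene was called where every library had an adjusted p below 0.05 and the same direction. The expectation takes length alone, with no measure of how much exon and intron RNA was present. The part of RNA amount in the calls was not tested. Of the 41 chromatin genes tested, 33 were called higher in exons and 0 lower, beside 23.9% of all 9224 genes tested that were called higher. The test sees more in genes with more crosslinks. Among genes with at least 50 crosslinks, a minimum chosen after seeing the data, 32 of 35 chromatin genes were called beside 51.5% of all. In 39 of the 41, exons were denser than introns in every library with no count added. The exceptions were Kdm4d, in replicate 2, and Kdm4c, with no exonic crosslink in replicate 1. That count was not made over all 9224 genes, of which 1 was called lower. Without replicate 2, 35 were called, beside 3393 of all 7506 genes then tested.

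By family, 10 of 10 Chd genes were called, 6 of 7 Kmt genes, 8 of 10 Brd genes and 9 of 14 Kdm genes. The log2 ratio of Chd5 was 5.82, 3.91 and 6.22 (5.32 ± 1.24, largest adjusted p = 1.42e-80 by the exact binomial test), and that of Chd4 was 4.65, 4.40 and 5.57. Of the other genes among the 10 with the highest CPM, Brd3 had 4.10 ± 1.37, Kmt2c 3.60 ± 0.54 and Brdt 3.28 ± 0.76. Values between 2 and 3 were found for Kdm5b (2.78 ± 0.85), Brd10 (2.62 ± 0.51), Kdm3a (2.61 ± 0.16) and Brd8 (2.34 ± 0.74). All of these were called.

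The 8 tested genes that were not called were Kdm4d, Kdm4c, Kdm2b, Kdm6b, Kdm1b, Kmt5b, Brd2 and Brd8dc. In Brd2 the values were 33, 11 and 105 exonic against 5, 1 and 0 intronic crosslinks, and the call was missed in replicate 2, with 12 crosslinks there (largest adjusted p = 0.0746, exact binomial test). Kdm2b missed it at an adjusted p of 0.0561 in the same exact test. Kdm4d had log2 ratios of 2.45, -0.99 and 1.91 (largest adjusted p = 0.174, exact binomial test), and exons were less dense than introns in replicate 2.

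**Figure D2:**
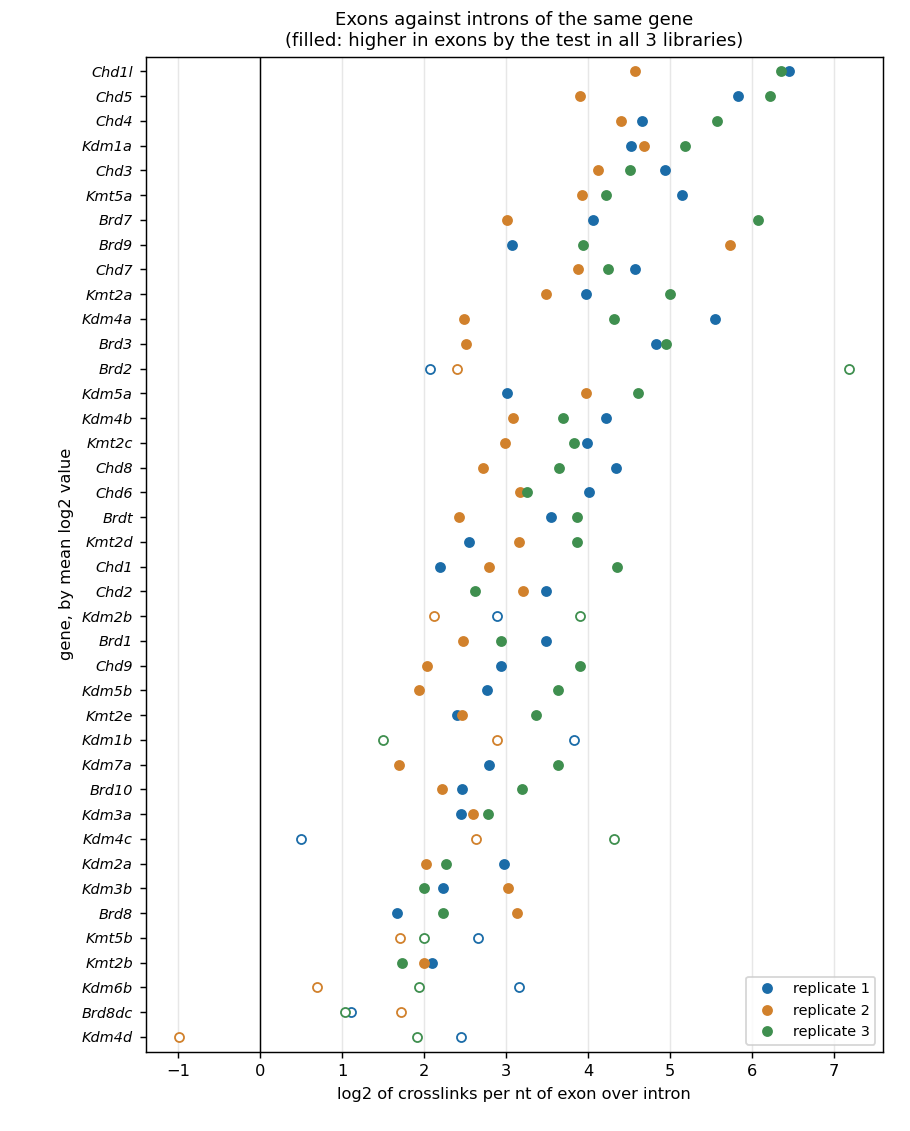
Density of crosslinks in exons over that in introns, as a log2 ratio, 1 point per library, for 40 of the 41 chromatin genes with at least 10 crosslinks, ordered by their mean. Filled points mark 32 of the 33 genes called higher in exons, open points the 8 not called, and the vertical line marks equal density. Kdm4d in replicate 2 is the single point left of that line, and Kdm4c in replicate 1 lies right of it only through the 0.5 added to each count.

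The share of crosslinks in exons spread widely among the 44 genes. Of those with at least 30 crosslinks, Brd2 had the highest share at 96.1% over the 3 libraries, then Kmt2d at 91.3%, Chd5 at 91.0%, Chd3 at 90.9% and Chd4 at 89.0%. The 3 remodellers of the NuRD type were thus all among the highest 5 by this share, which does not allow for length. The lowest were Kdm4d at 11.7%, Kdm4c at 17.2%, Kdm2b at 27.5%, Brd8dc at 28.8% and Chd9 at 29.7%. These shares pool libraries of unequal size, and the mean over libraries kept the same 5 genes at each end in another order. It was 92.8% ± 6.66 for Brd2, 90.9% ± 2.56 for Chd3, 90.8% ± 3.89 for Kmt2d, 88.1% ± 9.55 for Chd5 and 87.3% ± 4.28 for Chd4, and at the low end 16.4% ± 17.8 for Kdm4c and 18.1% ± 13.2 for Kdm4d. These spreads overlap, so neighbours in the order did not separate, and the pooled value of Kdm4d leaned on the 142 intronic crosslinks of replicate 2. Kdm4c, a paralogue of Kdm4d, had 0, 4 and 6 exonic and 12, 25 and 11 intronic crosslinks. Kdm2b, a CpG island binder, had 5, 5 and 12 against 15, 26 and 17. Chd9 had 6, 8 and 13 against 14, 35 and 15, and unlike the others of this low group it was called higher in exons per nt (2.96 ± 0.93). In the highest 5, introns summed to between 3660 nt (Brd2) and 42173 nt (Chd5), below the median of 45487.5 nt for the 44 genes. In the lowest 5, Kdm4c, Kdm2b and Chd9 had 149729, 113255 and 214109 nt of intron, and Kdm4d and Brd8dc 35240 and 15261 nt.

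Within exons, crosslinks of the chromatin genes lay mostly in coding sequence. The coding share was 86.9%, 90.4% and 87.2% of exonic crosslinks, for 67.0% of exon length. The 3′ untranslated regions held 8.80% ± 2.26 for 27.1% of length, and the 5′ untranslated regions 3.06% ± 0.538 for 5.96%. In all other genes coding sequence held 78.3% ± 2.84 for 47.0% of length. Coding sequence was thus over-represented relative to its length in both sets.

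Chd5 exon 3 was the exon of these genes with the most crosslinks, 50, 36 and 57 in replicates 1, 2 and 3. All its bases are coding. Its sequence is printed because it is the only exon of the 44 genes that passed the test against the other internal exons of its gene. Exon 8 is printed beside it as a stretch of the same transcript with few GAA triplets. It had 7, 0 and 31 crosslinks, or 41.9, 0 and 186 per kb. In replicate 3 that was above exon 2, with 11 GAA triplets and 180 per kb. Exon 35 is the second peak near the 3′ end, with 21, 12 and 34. Capitals mark GAA, the core of the purine motif that Tra2β is known to bind. Sequences run 5′ to 3′ on the plus strand of GRCm39, at chr4:152437998-152438186, chr4:152445021-152445187 and chr4:152467349-152467486.
Chd5 exon 3: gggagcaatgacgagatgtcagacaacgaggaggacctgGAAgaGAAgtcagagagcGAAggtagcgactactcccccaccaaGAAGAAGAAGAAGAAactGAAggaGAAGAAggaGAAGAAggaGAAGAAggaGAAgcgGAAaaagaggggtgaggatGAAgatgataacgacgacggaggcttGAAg
Chd5 exon 8: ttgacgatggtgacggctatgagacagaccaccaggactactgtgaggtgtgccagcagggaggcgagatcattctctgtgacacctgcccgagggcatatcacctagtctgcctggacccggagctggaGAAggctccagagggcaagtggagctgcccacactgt
Chd5 exon 35: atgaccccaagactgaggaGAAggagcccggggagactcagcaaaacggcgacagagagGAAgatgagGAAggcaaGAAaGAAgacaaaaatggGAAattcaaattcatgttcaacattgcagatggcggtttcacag

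The other 38 internal exons of Chd5 held 309, 130 and 560 crosslinks in 5522 nt. Exon 3, 189 nt long, was above them by 2.25, 3.03 and 1.58 on the log2 scale (2.29 ± 0.72), with adjusted p of 2.32e-13, 3.63e-15 and 3.44e-08 by the two-sided exact binomial test on length. All 3 libraries placed it above the rest. In the same test over 846 internal exons of 32 chromatin genes it was the single exon called higher, and 0 were called lower, beside 0.0311% called higher of 41821 internal exons of all genes. At an unadjusted exact p under 0.05 in every library, 5 of the 846 were higher and 0 lower, beside 112 higher and 19 lower of all 41821. The 5 were Chd5 exons 2, 3 and 35, Brd3 exon 9 and Brd2 exon 9.

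Exon 3 held 19 GAA triplets, 10.1 per 100 nt, and 78.8% of its bases were purines. Both values were the highest of the 39 internal exons of Chd5, whose medians were 2.09 GAA per 100 nt and 54.9% purine. The crosslinks were spread along the exon: 80 of its positions were crosslinked in some library, 4 in all 3, and no position held more than 3 cDNAs of a library. Its 3 equal parts from the 5′ end held 12, 16 and 19, then 14, 10 and 16, then 24, 10 and 22 crosslinks. The densest 41 nt of any chromatin gene lay here, at chr4:152438111-152438151, with 22, 12 and 20 crosslinks, 6 GAA triplets and 95.1% purines.

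Across the 39 internal exons, GAA per 100 nt and crosslinks per kb had Spearman correlations of 0.19, 0.48 and 0.19 in the 3 libraries. Purine content had 0.30, 0.56 and 0.34. Exons of 1 transcript share its level and are not replicates, so these values are descriptions. Exon 4 went against them, with 22, 6 and 15 crosslinks in 119 nt and no GAA. Exon 5, with 33, 9 and 45 crosslinks, had 2.09 GAA per 100 nt.

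Among the internal exons of Chd5, crosslinks were denser in exons 2 to 7 than in exons 8 to 40. The first exon, left out of both stretches, held 12, 3 and 27 crosslinks in 411 nt, or 29.2, 7.30 and 65.7 per kb. That was below both stretches in each library. Exons 2 to 7 held 151, 95 and 172 crosslinks in 921 nt, or 164, 103 and 187 per kb. Exons 8 to 40 held 208, 71 and 445 in 4790 nt, or 43.4, 14.8 and 92.9 per kb. The ratio was 3.78, 6.96 and 2.01, above 1 in all libraries and largest in replicate 2. The boundary after exon 7 was chosen after the values were seen, so no test was made.

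Among the 10 internal exons of the chromatin genes with most crosslinks were also Chd5 exons 2, 7 and 9. Exon 2 had 18, 24 and 23 crosslinks and passed in replicate 2 only (adjusted p = 3.56e-09, exact binomial test). Exon 7 had 18, 13 and 12, and exon 9 had 14, 2 and 23, with mean log2 values of 1.06 and -0.46. Exon 10, with 10, 2 and 26, tied with exon 8 for the last place. Of the exons of Chd5, only exons 3 and 35 were above its other internal exons by over 1 on the log2 scale in every library.

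**Figure D3:**
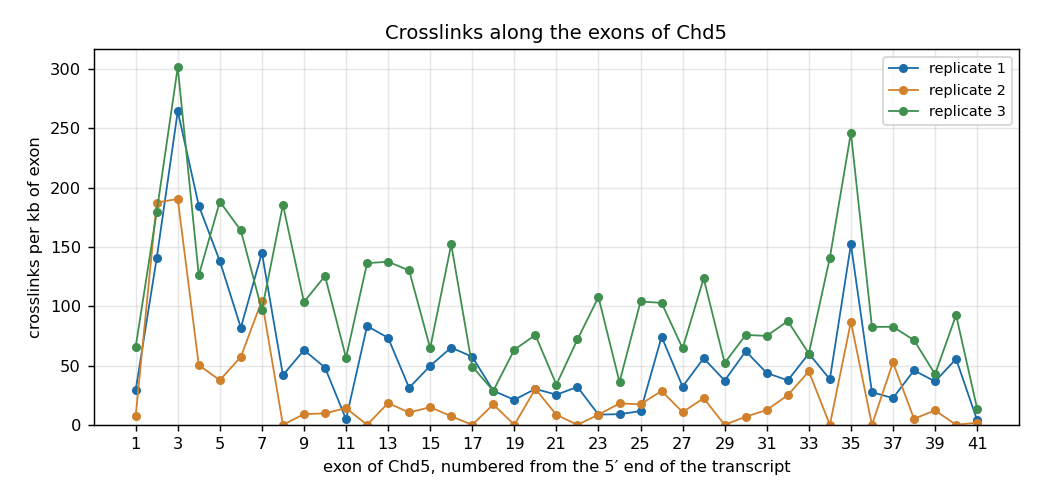
Crosslinks per kb in each of the 41 exons of Chd5, numbered from the 5′ end, with 1 line per library. Exon 3 is the highest exon in all 3 libraries, exons 2 to 7 lie above most later exons, and exon 35 rises above its neighbours in each library.

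Brd3 exon 9 was the most crosslinked internal exon outside Chd5, with 20, 13 and 33 crosslinks in 242 nt. The other internal exons of Brd3 held 49, 14 and 135 in 1918 nt. The log2 values were 1.71, 2.88 and 0.97 (1.86 ± 0.96), and adjusted p by the exact binomial test was 0.0209, 0.00167 and 0.192, so that replicate 3 missed the call. Brd3 exon 10 had 14, 4 and 38 crosslinks and did not pass in any library. Of 6676 crosslinked positions of the 44 genes, 206 were seen in at least 2 libraries and 11 in all 3, of which 9 were in Chd5 and 2 in Brd3.

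Related genes with a similar exon allowed a view of the same kind of sequence at other levels. For Chd5 exons 3 and 35 and Brd3 exon 9, the internal exon of each relative with the highest nucleotide identity was taken, a choice made after the values were seen. Chd4 exon 4 and Chd3 exon 3 matched Chd5 exon 3 at 62.1% and 56.5% identity, and Chd4 exon 35 matched Chd5 exon 35 at 61.8%. Brd2 exon 9 matched Brd3 exon 9 at 54.7%. The best match in Brdt, exon 10, reached 47.5%, hardly above the next exon at 46.9%.

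These exons are printed on their coding strand of GRCm39, with GAA in capitals, because all hold many GAA triplets but very different numbers of crosslinks. Chd4 exon 4 lies at chr6:125077762-125077956 on the plus strand, and Chd3 exon 3 at chr11:69254799-69254969 on the minus strand. Brd3 exon 9 lies at chr2:27342845-27343086 and Brd2 exon 9 at chr17:34332544-34332806, both on the minus strand.
Chd4 exon 4: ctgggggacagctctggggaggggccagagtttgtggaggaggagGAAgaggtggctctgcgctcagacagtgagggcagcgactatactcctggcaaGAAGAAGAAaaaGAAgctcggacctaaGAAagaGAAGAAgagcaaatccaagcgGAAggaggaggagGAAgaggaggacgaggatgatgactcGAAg
Chd3 exon 3: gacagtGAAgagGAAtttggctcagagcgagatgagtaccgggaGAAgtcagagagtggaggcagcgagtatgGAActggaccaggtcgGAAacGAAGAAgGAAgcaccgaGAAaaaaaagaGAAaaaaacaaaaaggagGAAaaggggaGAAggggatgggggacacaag
Brd3 exon 9: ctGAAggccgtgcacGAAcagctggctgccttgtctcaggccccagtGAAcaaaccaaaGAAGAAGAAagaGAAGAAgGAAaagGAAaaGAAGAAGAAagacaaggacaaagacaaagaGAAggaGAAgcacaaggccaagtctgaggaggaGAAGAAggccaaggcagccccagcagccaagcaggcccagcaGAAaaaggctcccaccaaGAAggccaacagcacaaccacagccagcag
Brd2 exon 9: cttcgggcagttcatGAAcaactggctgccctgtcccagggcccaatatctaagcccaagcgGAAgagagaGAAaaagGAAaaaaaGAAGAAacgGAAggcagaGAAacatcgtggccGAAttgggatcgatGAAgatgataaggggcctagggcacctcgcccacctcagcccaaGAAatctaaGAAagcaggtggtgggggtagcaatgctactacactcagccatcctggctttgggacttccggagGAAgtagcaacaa

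Chd4 exon 4, with 11 GAA triplets and 73.3% purines, had 3, 11 and 6 crosslinks. Its log2 values against the other internal exons of Chd4 were 0.03, 2.11 and -0.43, which changed sign between libraries. Chd3 exon 3, with 12 GAA triplets and 80.1% purines, had 1, 4 and 0 crosslinks. Neither exon was called, and Chd3 had few crosslinks to test. Per kb, Chd5 exon 3 reached 265, 190 and 302 crosslinks, Chd4 exon 4 15.4, 56.4 and 30.8, and Chd3 exon 3 5.85, 23.4 and 0.

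Chd4 exon 35 had 4, 8 and 13 crosslinks and log2 values of 0.93, 2.13 and 1.18, above 0 in all libraries without a call in any. Brd2 exon 9, with 13 GAA triplets, had 7, 5 and 22 crosslinks and log2 values of 1.61, 2.91 and 1.58, likewise above 0 in all libraries. It passed the exact binomial test in replicate 3 with an adjusted p of 0.0272. The genes of these exons also differed in level. Against the other internal exons of its own gene, Chd5 exon 3 stood at log2 values of 2.25, 3.03 and 1.58, above Chd4 exon 4 in each library. Brd3 exon 9 was not above Brd2 exon 9 on that scale in every library. The part of gene level in the difference among these exons was not tested.

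**Figure D4:**
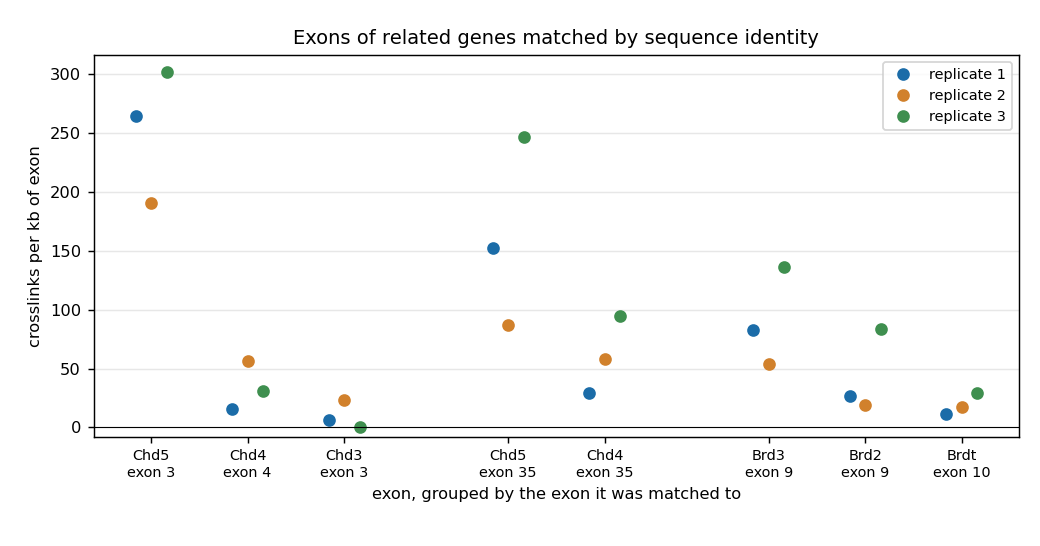
Crosslinks per kb of exon, 1 point per library, for Chd5 exons 3 and 35 and Brd3 exon 9, each followed by the exons of related genes with the highest sequence identity. Chd5 exon 3, at 190 to 302 per kb, lies above its matches in Chd4 and Chd3 in every library, and Brd3 exon 9 lies above its matches in Brd2 and Brdt.

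When the 3 libraries were summed before the test, a choice made after seeing the data that treats them as 1 sample, 15 internal exons of the chromatin genes were higher than the other internal exons, beside 2.01% of all internal exons tested, and 8 were lower, beside 0.825%. As a share of the 846 tested, both counts were near these backgrounds. The higher exons were Chd5 exons 2, 3, 4, 5, 7 and 35, Brd3 exons 9 and 10, Chd4 exons 3 and 35, Brd2 exon 9, Brd9 exon 2, Chd2 exon 5, Kdm5b exon 7 and Kmt2b exon 3. The lower exons were 6 of Chd5 (11, 18, 19, 21, 24 and 39), Brd3 exon 2 and Brdt exon 13. Brdt exon 13, 216 nt long, had no crosslink in any library, while the other internal exons of Brdt had 35, 37 and 108.

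Alternative exons of the chromatin genes carried few crosslinks. Internal exons of other GENCODE transcripts that lie wholly inside a canonical intron were taken, with overlapping ones merged. This gave 77 alternative exons in 32 of the genes. They held 49 crosslinks, 10, 24 and 15 by library, and 58 of the 77 held none. Of 45 with enough crosslinks to test against the rest of their intron, 0 were called higher in all libraries, and 0 passed at an unadjusted exact p under 0.05 in all libraries. Beside this, 0.0545% of 11003 alternative exons of all genes were called, and 17 passed unadjusted.

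The alternative exon of Kdm1a, the first lysine demethylase described, stood nearest to a call. It is a coding exon of 66 nt in intron 2 at chr4:136309345-136309410, with 1, 3 and 3 crosslinks, while 7, 1 and 14 lay in the other 15663 nt of the intron. The log2 values were 5.57, 9.11 and 5.84, and the exact binomial test passed in replicates 2 and 3 (adjusted p = 3.14e-04 and 0.0308) but not in replicate 1. The alternative coding exon of Brd3, 51 nt in intron 8 at chr2:27343412-27343462, had 0, 1 and 4 crosslinks beside 0, 3 and 2 in 1187 nt of intron, and passed in replicate 3 (adjusted p = 0.0261, exact test). Both lie on the minus strand and are printed, with GAA in capitals, because they hold 0 and 1 GAA triplets.
Kdm1a alternative exon in intron 2: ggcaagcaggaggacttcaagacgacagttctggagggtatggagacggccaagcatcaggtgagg
Brd3 alternative exon in intron 8: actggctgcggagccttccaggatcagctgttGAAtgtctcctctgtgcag

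The most crosslinks of any alternative exon fell in 218 nt of Kdm4d intron 1, at chr9:14390069-14390286, with 2, 11 and 0. The rest of that intron held 25, 131 and 43 in 34856 nt, and the exact test passed in replicate 2 only (adjusted p = 3.71e-06). Alternative exons in Brd10 intron 1, with 2, 0 and 2 crosslinks, and in Brd8 intron 21, with 1, 1 and 1, were not called in any library. With the libraries summed, again a choice made after seeing the data, 4 alternative exons of the chromatin genes were higher than their intron, in Kdm1a, Kdm4d, Brd3 and Brd10, beside 1.11% of all alternative exons tested.

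Canonical internal exons that another transcript skips were not denser in crosslinks than the rest in these genes as a whole. The 118 such exons of the chromatin genes had 4.54, 3.11 and 8.75 crosslinks per kb in the 3 libraries, against 5.99, 5.24 and 12.3 for the 728 exons not skipped. Without Chd5, whose exons are nearly all of the second kind, the values were 4.52, 3.03 and 8.60 against 3.69, 4.28 and 8.48. In all other genes the skipped exons had 8.91, 6.62 and 19.1 per kb and those not skipped 6.73, 5.86 and 14.1. The skipped exons were denser in every library there, whereas in the chromatin genes without Chd5 the order changed in replicate 2. The difference between the sets was not tested.

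GAA near exonic crosslinks was about as frequent in the chromatin genes as in others. Of 4322 crosslinked exonic positions, 74.5%, 84.5% and 74.4% had GAA within 30 nt, and this share was 1.02, 1.08 and 1.02 times that at all positions of the same exons (1.04 ± 0.0352). For the other protein-coding genes the ratio was 1.03, 1.08 and 1.02 (1.04 ± 0.0336). The values of both sets overlapped in the 3 libraries. In the chromatin genes, 72.9%, 78.3% and 73.3% of all positions of the same exons had GAA so near, which bounds the ratio. The shares at crosslinks were above these in each library, though by little in replicates 1 and 3.

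By distance, the centre of GAA was most frequent 1 nt downstream of the crosslink in replicates 1 and 3, at 5.08% and 5.88% of positions, and 7 nt downstream in replicate 2, at 7.12%. The same distances were highest in the other genes, at 4.36%, 5.25% and 5.88%. All positions of the exons of the chromatin genes gave 3.08%, 3.66% and 3.01%. Over 24 chromatin genes with at least 50 exonic positions, the ratio within 30 nt ran from 0.943 in Brd3 to 1.21 in Kmt2b, whose library values were 1.00, 1.28 and 1.12.

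**Figure D5:**
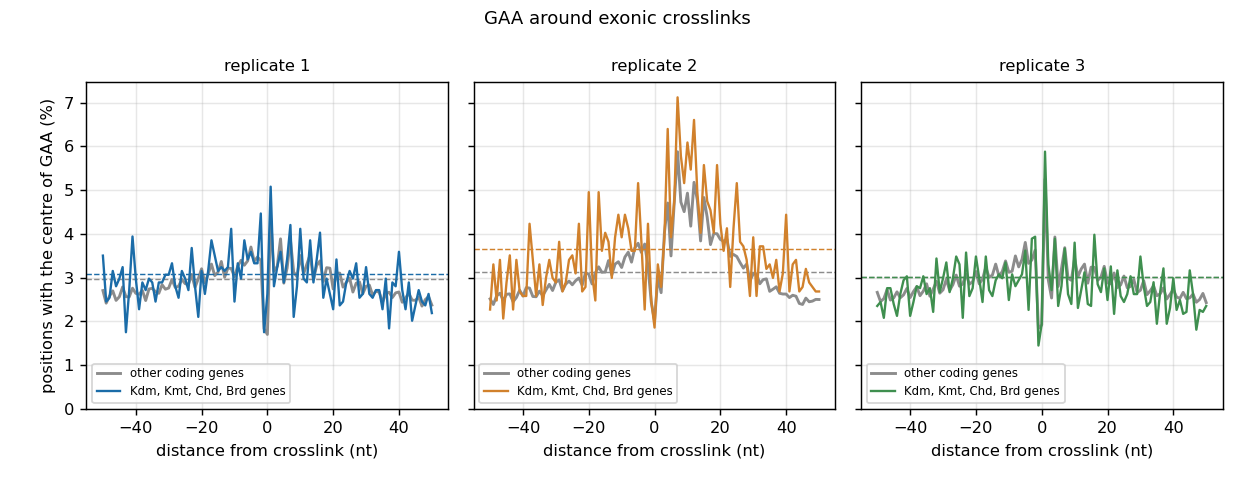
Share of crosslinked exonic positions (%) with the centre of GAA at each distance, in 1 panel per library, for the chromatin genes in colour and all other protein-coding genes in grey. Dashed lines give the share at all positions of the same exons. Both sets peak 1 nt downstream in replicates 1 and 3 and 7 nt downstream in replicate 2.

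Other chromatin genes that work with these families were counted from a list of 69 genes, made of COMPASS, NuRD and CoREST partners, other histone methyltransferases and demethylases, Polycomb genes and other bromodomain genes. Their median level was 67.3 ± 8.52 CPM and their median exon share 50.2% ± 7.92, beside 84.4 CPM and 53.7% for the families described here. Of 62 tested, 32 were called higher in exons than in introns and 0 lower, beside 33 of 41 in the families described here and 23.9% of all genes tested. The highest levels were those of Smarca2, a SWI/SNF ATPase, at 775, 420 and 1178 CPM, and Baz1a, a remodeller subunit, at 610, 253 and 604 CPM. Baz2a at 354 ± 68.2 CPM, Trim24 at 320 ± 128 CPM and Smarca4 at 296 ± 176 CPM followed. Only Chd5 of the 44 genes lay above Smarca2 by mean CPM.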

How the data were processed

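Tra2β iCLIP libraries from adult mouse testis were analysed as 3 replicates of 1 group. The authors deposited, per library, raw counts of unique cDNAs at each crosslinked nucleotide and strand, made with the iMAPS pipeline. The submitters' processing notes name Trim Galore 0.6.7, Bowtie 1.3.1, STAR 2.7.9a, UMI-tools 1.1.2 and the build mm39. How reads with several matches were treated is not given in the sources used here, so counts in near-identical copies are uncertain. All 49 sequence names fitted GRCm39, with 0 positions beyond a sequence end.

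Counts were summed by strand over exons and introns of the Ensembl canonical transcript of every protein-coding gene (GENCODE vM39), with Python 3.11.15, NumPy 2.4.6, SciPy 1.17.1 and Biopython 1.88. Log2 ratios are of crosslinks per nt with 0.5 added to each count. Genes needed 10 crosslinks for the exon against intron test, 20 internal exonic crosslinks for the exon test, and alternative exons 3 crosslinks with their intron. The test was an exact binomial test in each library with Benjamini-Hochberg adjustment over all features and libraries, and it was tested on simulated data. Its p-values cover counting error within these libraries, which ranged from 348033 to 619571 crosslinks. Exon identity was taken from global alignment.

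Genes named in full were the 10 with the highest mean CPM, the 5 with the highest and 5 with the lowest exon share among those with 30 crosslinks, the called exons, the 10 internal exons and 5 alternative exons with most crosslinks, and the 5 highest of the partner list. The values of 1 member are not reported here, though it stays in all counts and medians. Members and lists were chosen with earlier results of these data known. Alternatives left out each replicate, counted each position once, or changed the minimum, the scaling, the reference or the exon set.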

Additional observations from a re-analysis of the deposited data

Results flagged for a closer look

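The families have relatives on the sex chromosomes that the rule left out and that entered only as part of the other genes. Kdm5c carried 19 crosslinks over the 3 libraries, Kdm5d 13 and Kdm6a 33. By library, Kdm5c had 30.3, 13.1 and 9.33 CPM, Kdm5d 6.74, 19.6 and 4.67 CPM, and Kdm6a 26.9, 28.3 and 28.0 CPM. A count of 0 allows up to 10.1, 6.53 and 7.0 CPM. Kdm5c and Kdm6a were above this limit in each library, and Kdm5d in replicate 2 only. None was called higher in exons than in introns by the exact binomial test, although the log2 ratio was above 0 in every library for all 3.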

How the results depend on the processing

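The count of genes with denser exons stayed between 29 and 35 under all alternatives run, against 33. Without replicate 1, 34 were called, beside 2782 of all 8365 genes then tested. Without replicate 3, 33 were called, beside 2328 of all 7816. Counts over all genes are given only for leaving out a replicate and for the minimum of 50 crosslinks. Without replicate 2, Kdm4d, Brd2 and Kdm2b were called in addition, while Kmt5a fell below 10 crosslinks, and without replicate 1 Kdm4c was added. With exons of all transcripts merged, 29 genes were called, and Chd9 (log2 2.39) was among those that lost the call. The median exon share became 59.9% and exonic crosslinks per kb became 4.15. Leaving out 1 replicate gave 1 to 2 internal exons above the others, with Brd3 exon 9 added without replicate 3. Over all genes 38 of 35465, 59 of 32262 and 24 of 27360 internal exons tested were higher without replicates 1, 2 and 3. Leaving out 1 replicate also gave 0 to 1 alternative exons above their intron. That was the exon of Kdm1a, without replicate 1, beside 10 of 9755 alternative exons over all genes. With all other exons as reference, 4 internal exons were higher (Chd5 exons 2, 3 and 35 and Brd3 exon 9), beside 89 of 41821 over all genes. Summing the libraries gave 15 internal exons higher, 8 lower and 4 alternative exons higher. GAA within 10 nt gave a ratio of 1.08. The mean log2 value turned sign for Chd5 exon 9 (-0.46 as reported) without replicate 2 (0.010, from -0.72 over the replicates left out) and with all other exons as reference (0.16), and for Chd5 exon 8 (-1.0 as reported) without replicate 2 (0.17, from -1.91) and summed (0.21). For the alternative exon of Brd8 it ran from -0.41 without replicate 2 to 0.57 without replicate 3, with -0.37 against canonical exons and -0.39 summed. The cause of these changes was not tested. Low counts limit most exons: 215 of the 846 tested exons held no crosslink. The absence of a call does not show an exon to be free of Tra2β.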
